A study of Mus musculus with 12 samples.

Results

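Expression of 27 genes of cholesterol synthesis, sterol sensing and sterol transport was compared between fasted SIRT4 knockout (KO) and wild-type (WT) mouse livers. The genes were chosen by symbol as enzymes of the pathway, targets of the transcription factor SREBP2 and the proteins that control it, and all 27 of them were among the 18023 genes measured. The tissue was whole liver from male littermates on a 129 background (strain 129SV), aged 7 to 8 months and killed after 16 h without food, with no other treatment. The KO group held 6 animals labelled SIRT4 KO and the WT group 6 labelled SIRT4 WT, each animal on an array of its own (Affymetrix Mouse Genome 430 2.0). How the SIRT4 allele was made, and whether any littermates shared a litter, is not stated in the labels. SIRT4 is a sirtuin of mitochondria, and this series set KO against WT livers in the fasted state.

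Liver cells make cholesterol from acetyl-CoA through mevalonate, isoprenoid diphosphates, squalene and lanosterol. SREBP2 is held in the endoplasmic reticulum with its escort SCAP by INSIG proteins while sterols are plentiful. When sterols run low it is cut free, enters the nucleus and raises transcription of nearly every enzyme of the route together, so the messages of the pathway are known to move as a block. Fasting is known to lower the hepatic expression of these genes relative to feeding.

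Deposited intensities were brought to log2(intensity + 50), and KO minus WT differences on that scale are called log2 fold changes. The offset makes them smaller than the change of dim genes. Array medians lay between 36.6 and 38.69, and pairs of arrays correlated at 0.988 to 0.994. The deleted gene read 81.0 to 121 in KO livers and 153 to 187 in WT livers, and Sirt4 was the single gene of 18023 (0.00555%) past a limma adjusted p of 0.05 (log2 fold change -0.53, adjusted p = 0.0356). That call was lost on leaving out any animal other than WT replicate 6 and KO replicates 4 and 6 (adjusted p 0.0523 to 0.160), and with the title number series in the fit (0.605), which makes it a weak check of genotype. Hepatocyte markers were at high levels in every animal, with a summed intensity over 10 genes of 122600 to 127800 in KO livers and 121000 to 133700 in WT livers.

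None of the 27 genes passed the test for a difference between genotypes. The limma test adjusted over all 18023 genes called 0 of 27, with adjusted p-values from 0.750 to 0.998. At an unadjusted p under 0.05 it took 1 gene, Hsd17b7, or 3.70% of the 27 against 6.27% of all genes; 3.13% of all genes were higher in KO livers at that level, as Hsd17b7 was. The 27 log2 fold changes ran from -0.065 to 0.36 with a median of 0.068, against 0.00072 over all genes, and 21 were above 0 (77.8%, against 50.4% of all genes). In no member were the KO and WT values free of overlap (0.25% of all genes were). Much of the shift belonged to 1 animal, KO replicate 3, which was the highest of the 12 in 18 of the genes. Without that animal 15 of 27 were above 0, against 51.5% of all genes, and the median was 0.025.

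The mean of the 27 genes in each animal, each gene centred on its average over 12 animals, shows this directly. KO replicate 3 stood at 0.56 on the log2 scale, while the other 5 KO animals lay between -0.11 and 0.068. The 6 WT animals lay between -0.24 and 0.18, with replicate 2 highest and replicate 1 lowest. The average was 0.055 ± 0.26 in KO livers and -0.055 ± 0.15 in WT livers (SD, n = 6 each), a difference of 0.11. Leaving out KO replicate 3 brought the KO average to -0.046 ± 0.075 (SD, n = 5) and the difference to 0.0097. The heat map of all 27 genes shows that animal high in most enzymes of each stage, with exceptions such as Mvd (0.016) and Ggps1 (-0.10).

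**Figure D1:**
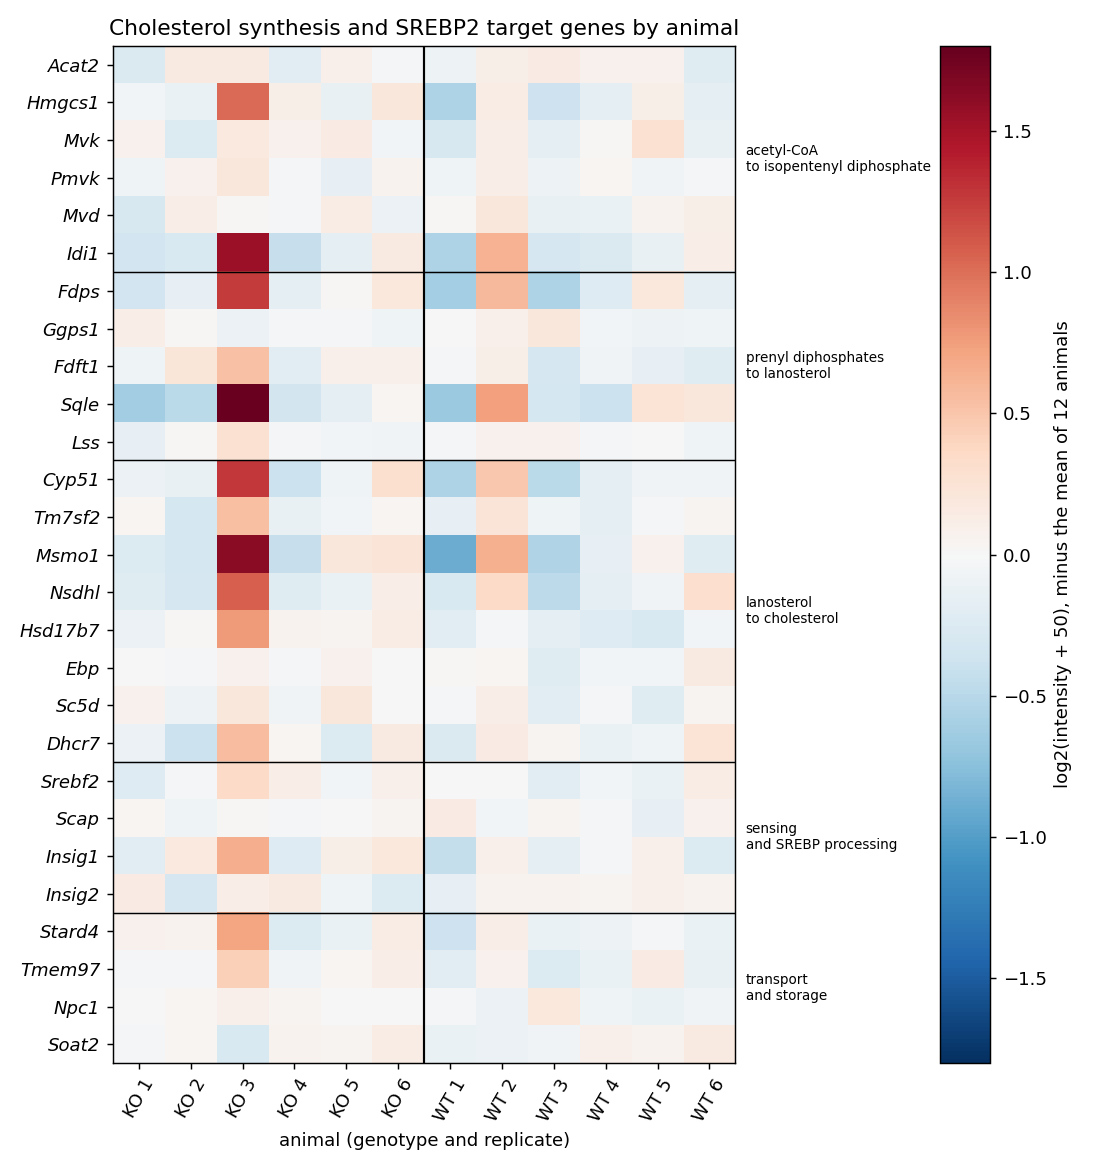
Level of each of the 27 genes in each animal, as log2(intensity + 50) minus the gene's mean over 12 animals, with KO animals left of WT animals and genes grouped by role. KO replicate 3 is the darkest red column, at 1.78 for Sqle and 1.62 for Msmo1; WT replicate 2 is pale red and WT replicate 1 blue in several of the same rows.

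The first stage turns acetyl-CoA into isopentenyl diphosphate. Of its 6 genes 4 had log2 fold changes above 0, the median was 0.047, and 0 passed the test. Hmgcs1 (Entrez gene 208715), the synthase that commits acetyl groups to the pathway, read 755, 848 and 1736 (lowest, median and highest of 6) in KO livers and 552, 734 and 919 in WT livers. The KO median lay above the WT median, the groups overlapped, and the highest value belonged to KO replicate 3. Means were 985 ± 376 in KO livers and 745 ± 145 in WT livers (SD, n = 6 each), with a log2 fold change of 0.34 (SE 0.17, limma adjusted p = 0.804). Without KO replicate 3 it was 0.17. Of the other 4 probe sets of Hmgcs1, the 3 bright ones gave 0.26, 0.26 and 0.27 over all animals, and a dim one, with a mean intensity of 10.4, gave 0.023.

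Idi1 (Entrez gene 319554), which isomerises isopentenyl diphosphate to its allylic partner, had 221, 261 and 996 in KO livers and 195, 264 and 507 in WT livers. The medians of the groups were near each other, and only KO replicate 3 exceeded the highest WT animal. Its log2 fold change of 0.17 turned to -0.12 without that animal. Of the remaining genes of the stage, Acat2, the cytosolic thiolase that makes acetoacetyl-CoA, gave -0.033, the mevalonate kinase Mvk 0.062, the phosphomevalonate kinase Pmvk 0.032 and the decarboxylase Mvd -0.047.

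The next stage builds farnesyl diphosphate, squalene and lanosterol, and 4 of its 5 genes were above 0 (median 0.068, 0 called). Sqle (Entrez gene 20775), the squalene epoxidase and a control point of the route, read 135, 191 and 925 in KO livers, against 129, 228 and 423 in WT livers. Apart from KO replicate 3, the KO animals ran from 135 to 242 and WT replicate 2 was the highest of all. Group means were 306 ± 306 in KO livers and 244 ± 108 in WT livers (SD, n = 6 each), and the log2 fold change of 0.068 (SE 0.34, limma adjusted p = 0.990) became -0.28 (SE 0.21, adjusted p = 0.874) with 5 KO animals. Both signs lay within the spread between animals.

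Fdps (Entrez gene 110196), the farnesyl diphosphate synthase, read 309, 388 and 1042 in KO livers and 247, 344 and 632 in WT livers, again with KO replicate 3 and WT replicate 2 as the 2 highest animals. Its log2 fold change was 0.28 (SE 0.25), and 0.051 without KO replicate 3. Fdft1 (Entrez gene 14137), the squalene synthase, differed from these in that KO replicate 3 exceeded the others by less. It had 552, 689 and 950.2 in KO livers and 515, 595 and 696 in WT livers, with a log2 fold change of 0.22 (SE 0.10, limma adjusted p = 0.791) and 0.13 without that animal. The other bright probe set of Fdft1, with a mean intensity of 629, gave 0.26 over all animals. A dim one, with a mean intensity of 20.6, gave 0.072. The lanosterol synthase Lss gave 0.0027, and Ggps1, which makes the longer isoprenoid used to anchor proteins, gave -0.024.

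All 8 genes that carry lanosterol to cholesterol had log2 fold changes above 0 (Dhcr7 was below 0 with an offset of 1 or after quantile scaling), with a median of 0.11 and 0 called; without KO replicate 3 the count was 5 of 8 and the median 0.042. Hsd17b7 (Entrez gene 15490), a ketosteroid reductase of sterol demethylation, was the gene nearest the threshold. It read 548, 616 and 1044 in KO livers, against 479, 518 and 576 in WT livers. All KO animals but replicate 1 lay above every WT animal, so the groups overlapped narrowly. Means were 680.4 ± 182 in KO livers and 526 ± 38.9 in WT livers (SD, n = 6 each), a log2 fold change of 0.31 (SE 0.11, limma unadjusted p = 0.0145, adjusted p = 0.750). The exact two-sided permutation p over the 12 animals was 0.00649 before any adjustment, where the smallest that 6 against 6 animals can give is 0.00216. Without KO replicate 3 the value was 0.19 (SE 0.060, limma unadjusted p = 0.00638, adjusted p = 0.788), and the other 2 bright probe sets of the gene gave 0.23 and 0.25 over all animals.

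Msmo1 (Entrez gene 66234), the methyl sterol monooxygenase of the same demethylation complex, had the highest log2 fold change of the 27, at 0.36 (SE 0.31). It read 499, 679 and 2205 in KO livers and 343, 596 and 1093 in WT livers. KO replicate 3 was 3.44 times the mean of the other KO animals, and without it the log2 fold change was 0.072. Cyp51 (Entrez gene 13121), the lanosterol demethylase, read 235, 301 and 853 in KO livers and 203, 295 and 470.4 in WT livers. The group medians of Cyp51 nearly coincided, and its log2 fold change of 0.29 (SE 0.24) was 0.061 with 5 KO animals.

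Nsdhl (Entrez gene 18194), a sterol dehydrogenase, had 172, 195 and 529 in KO livers and 148, 203 and 299 in WT livers, with a log2 fold change of 0.11 that turned to -0.093 without KO replicate 3. Dhcr7 and Tm7sf2, reductases of the late pathway, gave 0.0048 and 0.039, and -0.11 and -0.066 without it. Sc5d (Entrez gene 235293), a desaturase, read 1854, 2025 and 2276 in KO livers and 1693, 1929 and 2153 in WT livers (log2 fold change 0.10, SE 0.072). Its highest animal was KO replicate 5, with KO replicate 3 next to it. The sterol isomerase Ebp gave 0.034, and there WT replicate 6 was the highest animal.

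**Figure D2:**
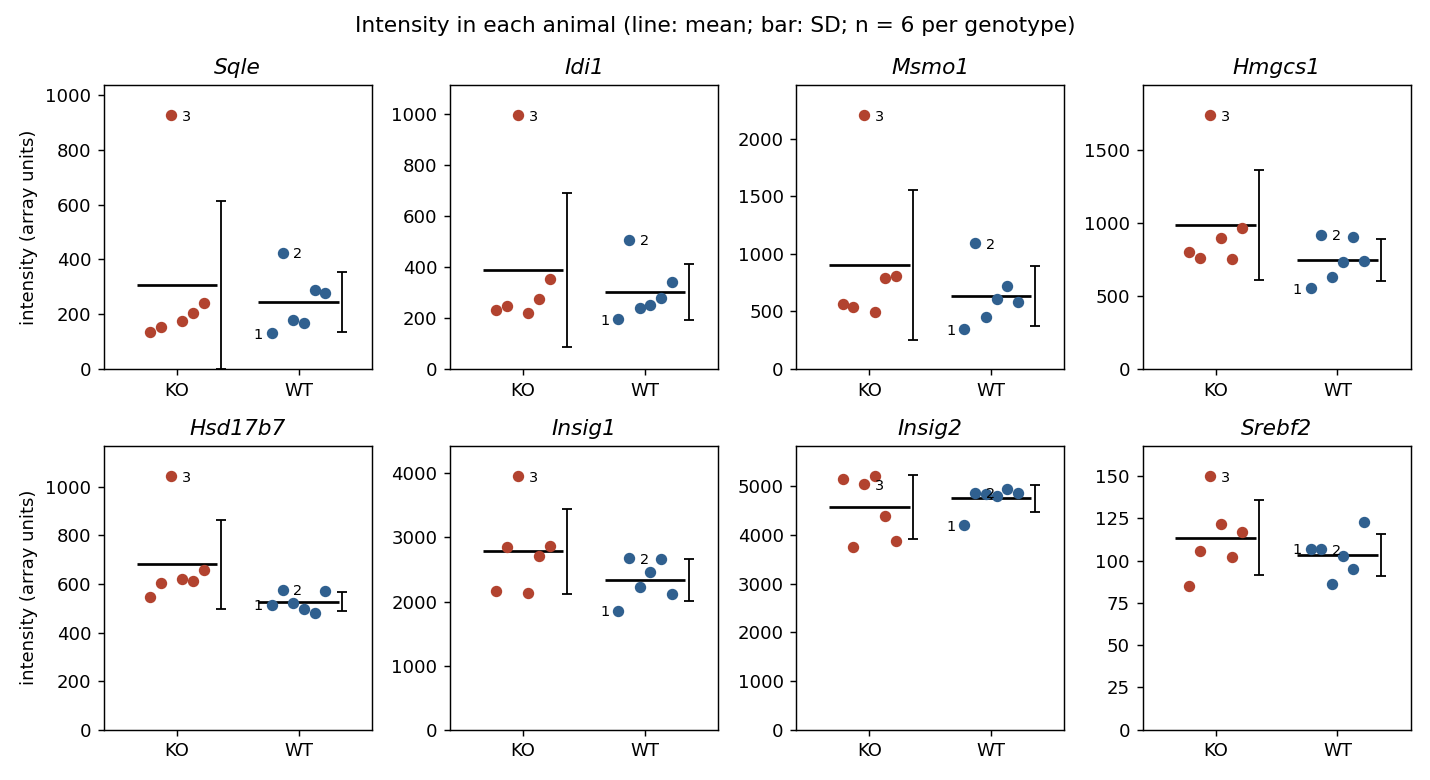
Intensity of 8 genes in each animal, KO left of WT, with the mean as a line, the SD as a bar (n = 6 per genotype) and KO replicate 3 and WT replicates 1 and 2 marked by number. Sqle reached 925 in KO replicate 3 against 423 in WT replicate 2, while Insig2 ran from 3743 to 5204 in KO livers and 4193 to 4947 in WT livers, with that animal at 5040.05, below KO replicate 4.

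Of the 4 genes that sense sterols and process SREBP2, 2 were above 0 (median 0.039, 0 called). Srebf2 (Entrez gene 20788), which encodes SREBP2 and is among its own targets, read 84.7, 111 and 149.9 in KO livers and 86.3, 105 and 123 in WT livers. KO replicate 3 was the highest animal here too, at 1.41 times the mean of the other KO animals. KO livers differed by 0.085 on the log2 scale (SE 0.083; adjusted p = 0.909 by limma). The second probe set of Srebf2 gave 0.082. Insig1 (Entrez gene 231070), an SREBP target that retains SCAP in the endoplasmic reticulum, read 2139, 2784 and 3958 in KO livers and 1851, 2340.0 and 2677 in WT livers. KO livers differed by 0.23 on the log2 scale (SE 0.13; adjusted p = 0.826 by limma), and by 0.12 without KO replicate 3.

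Insig2 (Entrez gene 72999), whose liver transcript is known to be lowered by insulin and to be high in fasting, read 3743, 4712 and 5204 in KO livers and 4193, 4843 and 4947 in WT livers. Its 3 probe sets gave -0.065, -0.12 and -0.15, and KO replicate 3 was not the highest animal in the one used. Scap (Entrez gene 235623), the escort of SREBP2, was among the steadiest genes, with 1440.0, 1534 and 1577 in KO livers and 1366, 1532 and 1687 in WT livers and a log2 fold change of -0.0080 (SE 0.053). Its SD over the 12 animals stood at percentile 15.4 of all genes.

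Of the 4 genes of transport and storage, 3 were above 0 (median 0.11, 0 called). Stard4 (Entrez gene 170459), a carrier of sterols between membranes, read 379.9, 484 and 785 in KO livers and 345, 424 and 506 in WT livers, with a log2 fold change of 0.20 (SE 0.13). Its other 2 probe sets gave 0.24 and 0.27. Tmem97 (Entrez gene 69071), a regulator of the lysosomal cholesterol exporter NPC1, had 451, 478 and 659 in KO livers and 394, 431 and 533 in WT livers (log2 fold change 0.16, SE 0.089). In both genes KO replicate 3 was the highest animal, and without it the values were 0.081 and 0.086.

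Npc1 itself (Entrez gene 18145) read 851, 867 and 913 in KO livers and 779.6, 807 and 982 in WT livers, with WT replicate 3 apart at the top (log2 fold change 0.066). Soat2, which esterifies cholesterol for storage and secretion, ran from 275 to 379 in KO livers and 311 to 387 in WT livers (log2 fold change -0.0050). KO replicate 3 was the lowest of the 12 animals for Soat2, unlike its place in most of the synthetic enzymes.

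**Figure D3:**
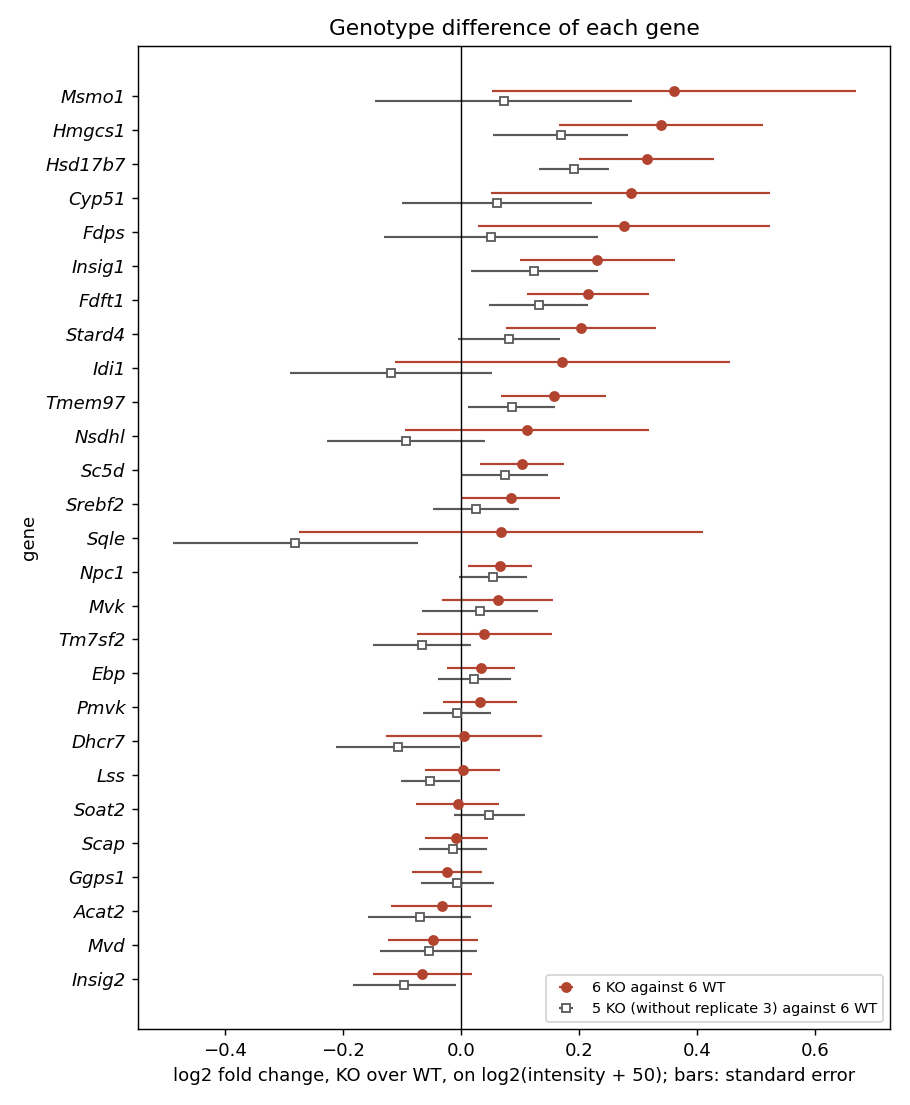
Log2 fold change of each gene, KO over WT, on log2(intensity + 50), with its standard error; red circles use 6 KO and 6 WT animals and open squares leave out KO replicate 3. The red points run from -0.065 for Insig2 to 0.36 for Msmo1, and 7 genes (Sqle, Idi1, Nsdhl, Lss, Dhcr7, Pmvk and Tm7sf2) move below 0 without that animal.

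The excess of KO replicate 3 was noticed in these data and is given as a description of that animal. It was the highest of the 12 animals in 18 of the 27 genes (66.7%), against 6.17% of all genes, and the highest KO animal in 21 (77.8%, against 14.1%). Among 8167 genes with a mean intensity over 100, a level set for this count, 12 genes (0.147%) were at least 2-fold above the mean of the other 5 KO animals in KO replicate 3. Without that level the count was 273 genes, the same 7 members among them. Members made up 7 of the 12: Sqle (5.08-fold), Idi1 (3.75-fold), Msmo1 (3.44-fold), Cyp51 (2.79-fold), Fdps (2.72-fold), Nsdhl (2.66-fold) and Hmgcs1 (2.08-fold). The other 5, seen only in this count, were Cyp2b10 (3.38-fold), Socs2 (3.22-fold), Cyp17a1 (2.70-fold), Neat1 (2.25-fold) and Igfbp1 (2.12-fold).

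The number of genes with a mean over 100 that were at least 2-fold above the rest of their own group ran from 0 to 22 in KO animals and from 4 to 30 in WT animals, so 12 was within the range of the other arrays. Of 32 further probe sets of these genes, all 13 with a mean over 100 were higher in KO replicate 3 than the mean of the other KO animals, by 0.15 to 1.74 on the log2 scale. Of the 19 dimmer ones 14 were higher, from -0.21 for one of Ggps1 to 1.01 for one of Cyp51; dim ones of Dhcr7 (-0.19) and Tmem97 (-0.013) were lower, though the probe sets used for these genes gave 0.67 and 0.42. Both probe sets of Idi1 stood 1.74 above the mean of the other KO animals on the log2 scale, the 4 bright ones of Hmgcs1 0.73 to 1.18, the 3 of Stard4 0.67 to 0.74 and both of Srebf2 0.35 and 0.36. A graded order ran through the members: 1.72-fold for Hsd17b7 and Stard4, 1.55-fold for Insig1, 1.44-fold for Fdft1, 1.02-fold for Scap, 0.882-fold for Ggps1 and 0.773-fold for Soat2.

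Animals other than KO replicate 3 also differed from each other in the same genes. Over all 12 animals, 11 of the 27 genes had an SD above the 95th percentile of all genes on the log2 scale. All 27 were brighter than the median probe set (mean intensity 46.4). The offset narrows the SD of dimmer genes, so these percentiles depend in part on brightness. With KO replicate 3 left out, 6 did: Sqle, Msmo1, Fdps, Idi1, Cyp51 and Nsdhl. In the 11 remaining animals the highest value of Sqle was 3.27 times the lowest, and that of Msmo1 3.18 times. WT replicate 2 was the highest of the 11 in 9 of 27 genes (33.3%, against 9.23% of all genes), and WT replicate 1 the lowest of the 11 in 10 (37.0%, against 8.74%). Over all 12 animals, WT replicate 2 came second behind KO replicate 3 in 8 genes (29.6%, against 0.488% of all genes), and WT replicate 1 was the lowest in 9 (33.3%, against 8.09%). In Sqle the readings of these WT livers were 423 and 129. These counts were chosen after the values had been seen.

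Where an SREBP2 target is switched on, its promoter is known to hold a sterol regulatory element beside a CCAAT box, the site of the cofactor NF-Y. Promoter windows from RefSeq (GRCm38.p6, 250 bases before to 50 after each start) were at hand for 21 of the 27 genes; Sqle, Fdps, Fdft1, Stard4, Npc1 and Soat2 were not matched. CCAAT on either strand was in a window of 19 of the 21 genes (90.5%), against 42.1% of 14198 measured genes with a window. The GC box GGGCGG, a site of Sp1, was in 19 as well (90.5%, against 58.3%), and the E-box CACGTG in 5 (23.8%, against 10.4%). The sterol element form TCACNCCAC was in 1, Hmgcs1 (4.76%, against 1.46%), and the longer classical element, sterol regulatory element 1, in 0 (0.0563% of measured genes). For the sterol element only these forms were searched, so an element with other letters would be missed. A gene without a match here may therefore still hold one. Some genes have several windows, GC-rich promoters hold more GC boxes, and a match is a description of letters only.

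The 200 bases before the start are shown for the 5 genes with a window that were at least 2-fold high in KO replicate 3, and for Acat2, which was not (1.18-fold) and has no CCAAT. Other genes that were not high in that animal do hold it: Mvk (1.18-fold), Ggps1 (0.882-fold), Mvd (1.04-fold) and Ebp (1.05-fold). Capitals mark CCAAT or its reverse complement ATTGG and, in Hmgcs1, the match to TCACNCCAC. A sterol element with other letters is not marked in any of the runs. Each run is 5′ to 3′ on the gene's strand.
Hmgcs1, chr13:119690151-119690350, plus strand: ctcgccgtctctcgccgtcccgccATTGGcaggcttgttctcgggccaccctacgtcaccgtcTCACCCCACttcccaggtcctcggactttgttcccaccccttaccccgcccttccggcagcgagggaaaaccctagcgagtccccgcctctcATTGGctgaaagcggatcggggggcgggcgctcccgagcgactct
Idi1, chr13:8885406-8885605, plus strand: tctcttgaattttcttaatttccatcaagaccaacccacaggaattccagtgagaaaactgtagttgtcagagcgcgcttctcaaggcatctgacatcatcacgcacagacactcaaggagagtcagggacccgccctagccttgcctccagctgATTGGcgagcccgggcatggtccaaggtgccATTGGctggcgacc
Cyp51, chr5:4104698-4104897, minus strand: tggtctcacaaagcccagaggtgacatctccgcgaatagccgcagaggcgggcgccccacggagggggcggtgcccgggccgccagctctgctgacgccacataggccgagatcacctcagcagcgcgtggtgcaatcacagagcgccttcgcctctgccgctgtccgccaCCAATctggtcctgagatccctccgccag
Msmo1, chr8:64733579-64733778, minus strand: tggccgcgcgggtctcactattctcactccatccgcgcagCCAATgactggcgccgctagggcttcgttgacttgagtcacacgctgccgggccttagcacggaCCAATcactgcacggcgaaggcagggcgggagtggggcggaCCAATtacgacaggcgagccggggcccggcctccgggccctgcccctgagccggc
Nsdhl, chrX:72918321-72918520, plus strand: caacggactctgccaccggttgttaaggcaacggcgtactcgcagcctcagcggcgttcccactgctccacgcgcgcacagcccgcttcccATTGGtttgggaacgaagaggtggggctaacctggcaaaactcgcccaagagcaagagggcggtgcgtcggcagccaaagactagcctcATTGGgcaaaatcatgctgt
Acat2, chr17:12960726-12960925, minus strand: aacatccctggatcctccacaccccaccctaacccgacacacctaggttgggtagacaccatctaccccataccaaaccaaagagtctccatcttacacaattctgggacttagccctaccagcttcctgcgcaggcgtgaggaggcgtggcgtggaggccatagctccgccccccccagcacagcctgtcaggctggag
Msmo1 held 3 CCAAT boxes in this stretch, Hmgcs1, Idi1 and Nsdhl 2 each, Cyp51 1 and Acat2 0.

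Genes around the pathway were set beside it as a first list. Of 35 other genes of sterol handling, which included SREBP processing proteases, oxysterol receptors, sterol exporters and bile acid enzymes, 17 were above 0 and 18 below, 0 were called, and the median log2 fold change was -0.014. At an unadjusted p under 0.05 limma took 2 of the 35, both higher. Over all genes 6.27% passed that level in either direction and 3.13% were higher, so the count was near the general share. Scarb1, the receptor for high-density lipoprotein, averaged 2401 ± 93.2 in KO livers and 2181 ± 92.5 in WT livers (SD, n = 6 each; log2 fold change 0.14, limma adjusted p = 0.750). Cyp27a1, a sterol hydroxylase of bile acid synthesis, averaged 6047 ± 352 in KO livers and 5360.0 ± 707 in WT livers (SD, n = 6 each; log2 fold change 0.18, limma adjusted p = 0.780). The sterol exporter Abcg8 gave -0.12. KO replicate 3 was the highest animal in 2 of the 35: Mylip, and Cyp7a1, the rate-limiting enzyme of bile acid synthesis. Both were picked out after their values were seen.

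Lipogenic enzymes, which answer to the related factor SREBP1c, were set beside the pathway as a second list. Of 15 measured, 11 were above 0 and 0 were called (median 0.033). By the smallest p the first were G6pdx (-0.17) and Acss2 (0.13), with limma adjusted p-values of 0.750 and 0.791. G6pdx was dim, with means of 37.4 in KO livers and 48.5 in WT livers. It was 1 of 3 genes of the list under the median probe set, and with brighter genes only the list median was 0.11. The list mean was 0.050 ± 0.089 in KO livers and -0.050 ± 0.12 in WT livers (SD, n = 6 each). KO replicate 3 stood at -0.0095, within the other animals of its group, and was the highest of 12 in 2 of the 15, the desaturases Fads1 and Fads2. For Scd1, it read 4292, against 6610 to 9610 in the other KO livers and 2916 to 11120 in WT livers. Fads1, Fads2 and Scd1 were likewise picked out after their values were seen.

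Markers of macrophages were read beside these values. All 12 Kupffer cell and macrophage markers had log2 fold changes below 0 (median -0.32, 0 called, 11 at an unadjusted limma p under 0.05, 6.27% over all genes), and none had a mean intensity under the median of all probe sets. Their summed intensity ran from 3408 to 5948 in KO livers and from 4044 to 7680 in WT livers, and 3408 was KO replicate 3, which was the lowest animal for 11 of the 12 (8.06% over all genes). Lyz2 gave -0.58, Timd4 -0.34 and Marco -0.69. In whole liver, fewer cells of a type and less RNA per cell cannot be told apart, and the part of these cells in the values of the 27 genes was not tested.

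Of the remaining marker lists, KO replicate 3 had list means of 0.0042 for hepatocyte, -0.034 for cholangiocyte, 0.040 for stellate cell, 0.040 for sinusoidal endothelial, -0.12 for neutrophil, -0.038 for B and T cell and -0.99 for acute phase genes. Medians over each list, KO against WT, were 0.0060, -0.043, -0.071, 0.052, -0.13, -0.033 and -0.77, with 0 genes called in any. The acute phase list mean was 1.922 in WT replicate 5 and 1.756 in WT replicate 6, against -0.9303 to 0.06802 in the other WT livers. The groups overlapped there (SD 0.7408 in KO and 1.227 in WT livers, n = 6 each), and KO replicate 4 was the highest KO animal. WT replicate 4, at -0.9303, lay close to KO replicate 3. For neutrophil genes WT replicates 5 and 6 were again the highest animals, at 0.5727 and 0.8802.

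**Figure D4:**
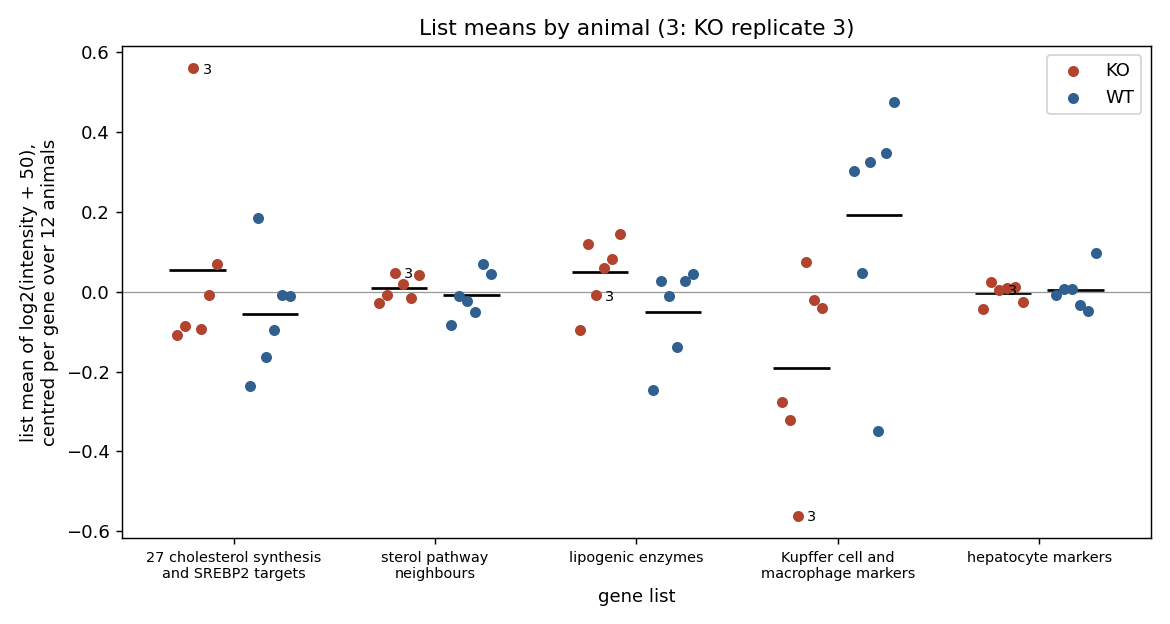
Mean of each gene list in each animal, on log2(intensity + 50) centred per gene, KO left of WT, with group means as lines and KO replicate 3 marked. That animal stands at 0.56 for the 27 genes, 0.048 for other sterol genes, -0.0095 for lipogenic enzymes and -0.56 for Kupffer cell and macrophage markers.

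The numbers in the sample titles fell into a 7200 series (5 KO and 2 WT animals) and a 7500 series (1 KO and 4 WT animals), whose meaning the labels do not give. With the series as a fixed effect the list difference was 0.10 and 0 of 27 genes were called. Within the 7200 series, which held KO replicate 3 and WT replicates 1 and 2, the difference was 0.079, and within the 7500 series, with its single KO animal taken to vary like the others, it was 0.14. Hsd17b7 gave 0.29 with the series in the fit, 0.27 within the 7200 series and 0.32 within the 7500 series. Srebf2 gave 0.079, 0.042 and 0.145 in the same settings.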

How the data were processed

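RNA from 12 livers was hybridised to 1 array each. Trizol extraction, column clean-up and biotin labelling are given per the labels' protocols. The deposited values are linear intensities per probe set. The submitters' processing notes name RMA, without version or settings. The deposited table also holds the authors' signed fold change, taken here as a score, and p-value, neither used for a test. Of 45037 probe sets, 37306 were assigned to 1 gene by Entrez gene number or accession. The 1285 with several genes and the 6446 with none were left out. Those named by accession were used only for genes with none named by number. The probe set with the highest mean stood for each of 18023 genes. limma 3.58.1 in R 4.3.3 was fitted to log2(intensity + 50) over all genes, without covariates, with Benjamini-Hochberg adjustment at 0.05, and was tested on simulated data. The number of arrays limits the precision, and p-values weigh the genotype difference against the spread between these animals. Replicate numbers follow record order and pair nothing. The 27 genes and the lists were chosen with earlier results of these data known. Genes described in full by rule were the 8 with the smallest p plus 7 fixed names, some of them shared; Idi1, Fdps, Msmo1, Nsdhl and Npc1 were added after their values were seen; each list gave up to 3 by p, of which 1 is not reported here. Alternatives covered offset, scaling, dim genes, probe set choice, variance model, title series and animals left out.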

Additional observations from a re-analysis of the deposited data

Results flagged for a closer look

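Dixon's test for 1 value apart from the other 5 of its group was run on 76 groups, and 12 passed its 95% critical value. Of the 76, 54 were single genes among the 27 in KO or WT livers, and 9 of these passed. The others were list means. Chance gives about 1 in 20, and 5.59% of all single-gene groups passed. Of the 9 genes, 7 were flagged for KO replicate 3 being high, so they come from 1 animal and are not separate trials. The gap of KO replicate 3 above the next KO animal, as a share of the range, was 0.724 for Sqle, 0.725 for Hsd17b7, 0.710 for Hmgcs1, 0.706 for Idi1, 0.696 for Nsdhl, 0.681 for Msmo1 and 0.664 for Fdps. It was 0.736 for the mean of the 27 genes, and 73 of all genes (0.405%) stood apart in this way. The same animal was apart for the stellate cell list mean (0.688).

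Insig2 stood apart in WT replicate 1 (0.812) and Npc1 in WT replicate 3 (0.666). The acute phase list mean stood apart in KO replicate 4 (0.669).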

How the results depend on the processing

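Under all 24 alternatives 0 of 27 genes were called, and the lowest adjusted p was 0.633 (limma, Hsd17b7 without KO replicate 5). In 12 genes the sign held throughout; 55 of 648 values reversed. Leaving out 1 animal at a time, genes above 0 numbered 15 to 24, their median ran from 0.025 to 0.12 and the list difference from 0.0097 to 0.16. The median was 0.025 without KO replicate 3, 0.034 without WT replicate 3, 0.119 without KO replicate 2 and 0.115 without WT replicate 6. Medians ran from -0.020 to 0.023 for the sterol neighbours and from 0.015 to 0.097 for the lipogenic list; the neighbours gave 0.038 within the 7200 series. The causes were not tested.

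Reversals over animals left out spanned -0.28 to 0.22 for Sqle, -0.12 to 0.31 for Idi1, -0.052 to 0.033 for Lss, -0.11 to 0.082 for Dhcr7, -0.078 to 0.0051 for Mvd, -0.0064 to 0.065 for Pmvk, -0.093 to 0.19 for Nsdhl, -0.039 to 0.020 for Scap, -0.0053 to 0.070 for Ebp, -0.066 to 0.11 for Tm7sf2, -0.079 to 0.017 for Acat2, -0.050 to 0.015 for Ggps1 and -0.032 to 0.048 for Soat2. Dhcr7 was -0.00091 with an offset of 1, -0.0011 with a floor of 10, -0.0018 after quantile scaling and -0.0094 with the median over probe sets, where Nsdhl was -0.028 and Scap 0.0098. Centring on array medians gave Scap 0.0021 and Soat2 0.0051. Lss was -0.0048 after quantile scaling, -0.022 with the title series fitted, -0.0019 within the 7200 series, -0.057 within the 7500 series (chosen after seeing the data) and -0.017 without WT replicates 5 and 6; Soat2 was 0.078, 0.082, 0.071 and 0.048 in those last 4 settings. Within the 7200 series Pmvk was -0.017, Insig2 0.049, Ebp -0.0095 and Tm7sf2 -0.029; within the 7500 series Scap was 0.064 and Mvk -0.050. No paired analysis was possible because the replicate numbers only follow record order.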
